A study of Homo sapiens with 12 samples.

Results

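The APOBEC3 genes encode cytidine deaminases that convert cytosine to uracil in single-stranded DNA. They were taken here as the genes whose listed name was APOBEC3A, APOBEC3B, APOBEC3C, APOBEC3D, APOBEC3F, APOBEC3G or APOBEC3H in both deposited expression tables, which each list 25914 genes. Of these 7 genes, 6 were listed in both tables, and APOBEC3A was listed in neither. Matching by Ensembl identifier instead of by name found the same 6 of 7.

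The tables come from an RNA-seq experiment with 12 libraries in 4 groups of 3. HCT116, a colon cancer cell line, and hTERT-immortalized RPE-1, a noncancerous line from retinal pigment epithelium, were both labelled wild type and were kept for 24 h with 10 µM Nutlin-3a or with the DMSO solvent alone. Nutlin-3a is an MDM2 inhibitor that stabilizes p53. Each table gives, for every gene, a base mean, that is, a mean over libraries of counts normalized for library size, together with the authors' own comparison of the treatments. The columns of that comparison were not used here, and no table holds values of single libraries. The base mean was identical in both tables for all 25914 genes, so it averages over both cell lines and both treatments at least. The number of libraries behind it, the reads per library and the spread between replicates are therefore unknown. No value below has an error, no difference between genes was tested, and neither the effect of Nutlin-3a nor a difference between HCT116 and RPE-1 cells is reported.

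APOBEC3 proteins are part of innate immunity. They restrict retroviruses and retrotransposons by deaminating the single-stranded DNA made during reverse transcription, and uracil left in the genome of the cell itself is a source of C-to-T mutations in cancer. Some members carry a single zinc-coordinating deaminase domain and others a pair of them, of which usually the second is catalytically active. In humans the family lies in 1 cluster of tandem copies, and some of its members share long stretches of nearly or fully identical sequence.

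The stretches of coding sequence that members share are shown first, because only uniquely mapped reads were kept for counting, according to the study's methods. A read that lies wholly within such a stretch matches 2 genes equally well. The longest exact match was taken for each of the 21 pairs of members, between the coding parts of their MANE Select transcripts, which are the reference transcripts agreed by Ensembl and RefSeq. All sequences were read from GENCODE 44 transcripts, are given 5′ to 3′ and lie on the plus strand of chromosome 22 in GRCh38 (hg38). Capitals mark the start codon where a shared stretch begins with it, and lower case marks all other bases.

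APOBEC3D and APOBEC3F: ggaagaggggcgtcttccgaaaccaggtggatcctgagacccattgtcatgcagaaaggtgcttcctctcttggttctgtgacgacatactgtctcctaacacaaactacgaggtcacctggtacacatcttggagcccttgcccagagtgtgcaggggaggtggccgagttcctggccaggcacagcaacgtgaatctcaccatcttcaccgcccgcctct
APOBEC3A and APOBEC3B: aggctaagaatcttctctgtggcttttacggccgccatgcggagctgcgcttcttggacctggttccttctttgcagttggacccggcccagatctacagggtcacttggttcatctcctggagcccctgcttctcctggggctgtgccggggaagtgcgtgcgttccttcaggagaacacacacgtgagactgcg
APOBEC3B and APOBEC3D: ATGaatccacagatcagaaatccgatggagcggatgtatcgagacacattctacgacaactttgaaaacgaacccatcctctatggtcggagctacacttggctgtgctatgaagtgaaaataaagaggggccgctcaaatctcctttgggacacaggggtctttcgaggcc
APOBEC3F and APOBEC3G: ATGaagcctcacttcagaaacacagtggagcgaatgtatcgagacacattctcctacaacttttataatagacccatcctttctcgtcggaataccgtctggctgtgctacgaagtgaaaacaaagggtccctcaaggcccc
APOBEC3B and APOBEC3F: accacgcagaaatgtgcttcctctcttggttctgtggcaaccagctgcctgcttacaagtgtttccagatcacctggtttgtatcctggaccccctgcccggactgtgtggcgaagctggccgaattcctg

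These were the 5 pairs whose longest shared coding stretch reached 100 bases. The stretch of APOBEC3D and APOBEC3F was the longest, with 222 bases, and covers coding bases 737 to 958 of APOBEC3D and 698 to 919 of APOBEC3F. Across an intron, it extends over chr22:39029494-39031889 in the former and chr22:39049556-39052269 in the latter. APOBEC3A and APOBEC3B shared 196 bases, from coding base 173 to 368 in APOBEC3A (chr22:38959685-38961580, with an intron between) and from 722 to 917 in APOBEC3B (chr22:38989609-38991525, likewise). The match of APOBEC3A therefore lies in the 3′ portion of the APOBEC3B coding sequence. The next pairs share their first coding bases. APOBEC3B and APOBEC3D were identical from the start codon to coding base 172 (chr22:38982454-38984229 and chr22:39021520-39022976), and APOBEC3F and APOBEC3G from the start codon to coding base 142 (chr22:39040961-39043061 and chr22:39077362-39079056), in all cases over more than 1 exon. APOBEC3B and APOBEC3F shared 131 bases that lie within 1 exon of both genes, at chr22:38985831-38985961 and chr22:39044960-39045090. Over all 21 pairs the median was 20 bases. No stretch with APOBEC3H was longer than 20 bases in coding sequence.

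The family fills 151.3 kb of chromosome 22, from 38952741 to 39104067 in GRCh38, and all 7 members lie on the plus strand in the order A, B, C, D, F, G and H. APOBEC3C (ENSG00000244509) spans 39014257 to 39020352 and ends only 760 bases before APOBEC3D (ENSG00000243811), which spans 39021113 to 39033277. The other gaps between neighbours run from 7.33 kb, between APOBEC3D and APOBEC3F, to 21.5 kb, between APOBEC3B and APOBEC3C. APOBEC3A (ENSG00000128383) lies from 38952741 to 38963184, APOBEC3B (ENSG00000179750) from 38982347 to 38992804, APOBEC3F (ENSG00000128394) from 39040604 to 39055972, APOBEC3G (ENSG00000239713) from 39077067 to 39087743, and APOBEC3H (ENSG00000100298) from 39097224 to 39104067. The coding sequences fall into a short and a long class. APOBEC3H has 549 coding bases, APOBEC3C 570 and APOBEC3A 597, as fits members with a single deaminase domain. APOBEC3F has 1119, APOBEC3B 1146, APOBEC3G 1152 and APOBEC3D 1158, as fits those with a pair of domains. The nearest protein-coding genes outside the cluster are CBX6 and CBX7, which encode subunits of Polycomb complexes. GENCODE 44 annotates 15 genes between them, of which the 6 listed members were the only ones in the tables, and 9 genes including APOBEC3A were not listed. Apart from APOBEC3A, those not listed are long noncoding RNAs, pseudogenes and the protein-coding gene ENSG00000284554. The authors used another annotation release, and whether it holds these genes was not checked.

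**Figure D1:**
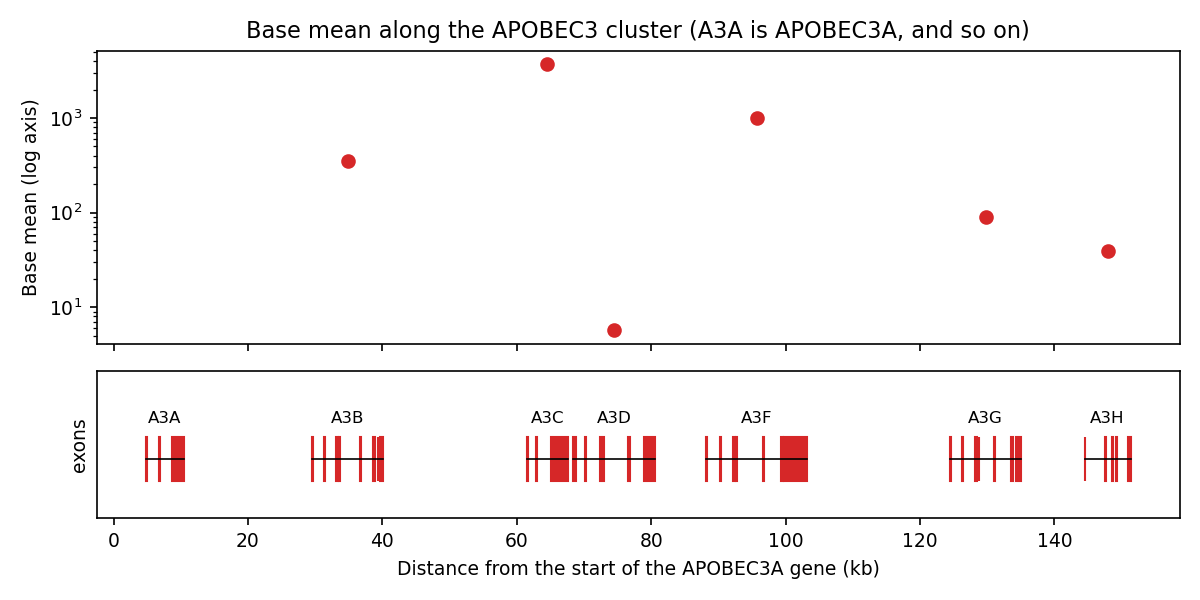
The authors' base mean (upper panel, log axis, 1 point for each listed gene) is plotted over the exons of the MANE Select transcripts (lower panel, red boxes), with the distance from the start of APOBEC3A in kb on the shared axis. APOBEC3C at 3719 and APOBEC3D at 5.67 are neighbours in the cluster, and APOBEC3A has no point because it was not listed.

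The base means of the listed members ranged over a factor of 655. APOBEC3C, a member with a single domain, had the highest base mean, 3719, and ranked 1795 of the 25914 listed genes. APOBEC3F, which restricts retroviruses together with APOBEC3G, followed at 1001. APOBEC3B, the member found mainly in the nucleus and linked to mutations in tumours, stood at 348. The base mean of APOBEC3G, the best-studied HIV restriction factor, was 90.2, and that of APOBEC3H, another member with a single domain, was 39.3. APOBEC3D was lowest at 5.67, close to the lowest base mean in the tables, 2.91. APOBEC3A, known from myeloid cells and keratinocytes, was not listed, and its level is unknown beyond that.

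Set against all listed genes, whose median base mean was 149.8, 3 of the 6 listed members lay above the median. APOBEC3C lay above 93.1% of the listed genes, APOBEC3F above 74.6% and APOBEC3B above 59.1%. APOBEC3G lay above 45.0%, APOBEC3H above 36.5% and APOBEC3D above 11.2%. The 15758 protein-coding genes had a higher median, 650.6, and only APOBEC3C and APOBEC3F were above it, so that 2 of 6 members exceeded the median there. APOBEC3B, at 37.7% of the protein-coding genes, changed sides. These places describe an average over 2 cell lines and both treatments. A gene that is high in 1 line or treatment and low in another cannot be told apart from one at the average in all of them.

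**Figure D2:**
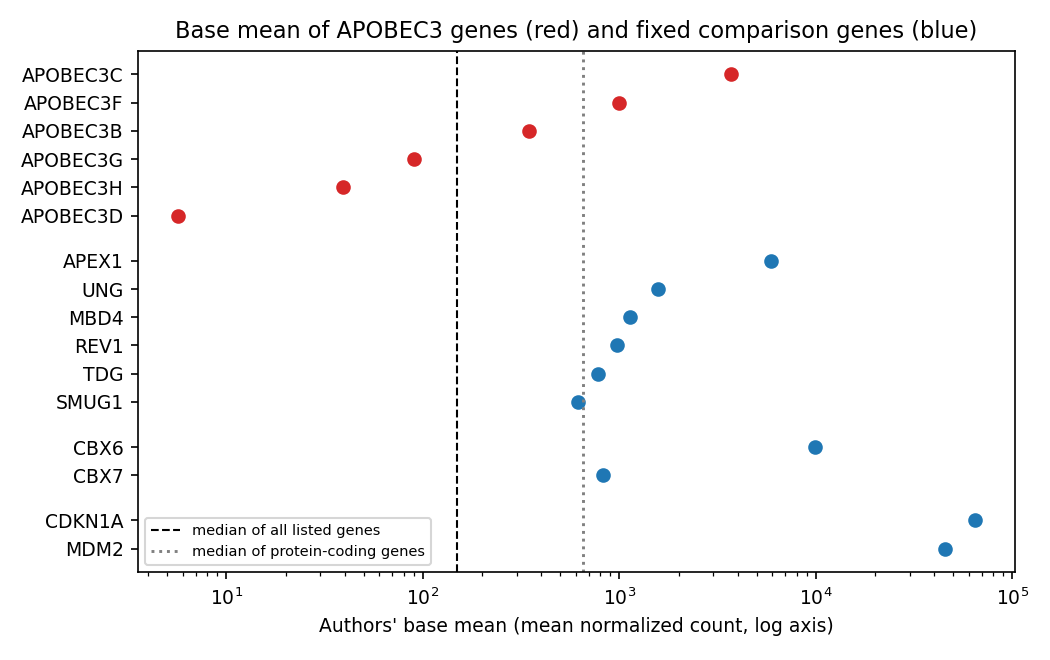
Each point is the authors' base mean (mean normalized count, log axis) of 1 gene, with the APOBEC3 genes in red and the comparison genes in blue, and vertical lines at the medians of all listed genes (149.8) and of the protein-coding ones (650.6). Among the red points, APOBEC3C, APOBEC3F and APOBEC3B lie to the right of the median of all listed genes.

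Since long transcripts give more reads, levels of different members were compared per kb of exon, with all annotated exons of a gene merged. APOBEC3C had a base mean per kb of 1406, and made up 76.8% of the summed base mean per kb of the listed members. APOBEC3F and APOBEC3B, a factor of 2.88 apart in base mean, had nearly the same base mean per kb, 191.9 and 183.4, because APOBEC3F has 5215 bases of exon and APOBEC3B 1896. APOBEC3H had 31.4 per kb and APOBEC3G 16.8, and APOBEC3D had 2.24. The order of APOBEC3G and APOBEC3H depended on the length used. APOBEC3G was 2.30 times higher in base mean, and APOBEC3H was 1.87 times higher per kb of merged exon, 1.15 times higher per kb of the longest transcript and 1.23 times higher per kb of start positions in the longest transcript not shared with another gene. With the MANE Select transcript as the length, an alternative added after these values were seen, APOBEC3G was again higher, with 57.7 against 38.2 per kb. The longest annotated transcript of APOBEC3G is one of several with a retained intron, and it has 2775 bases against 1564 in the MANE Select transcript. Under each of these 4 lengths, APOBEC3C came first, APOBEC3F and APOBEC3B next with at most a factor of 1.18 between them, and APOBEC3D last. None of the 4 lengths leaves out the exon bases of APOBEC3D that another gene covers on the same strand, which are 83.2% of them. With no error on any value, the order within the pairs of APOBEC3F with APOBEC3B and of APOBEC3G with APOBEC3H cannot be given.

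**Figure D3:**
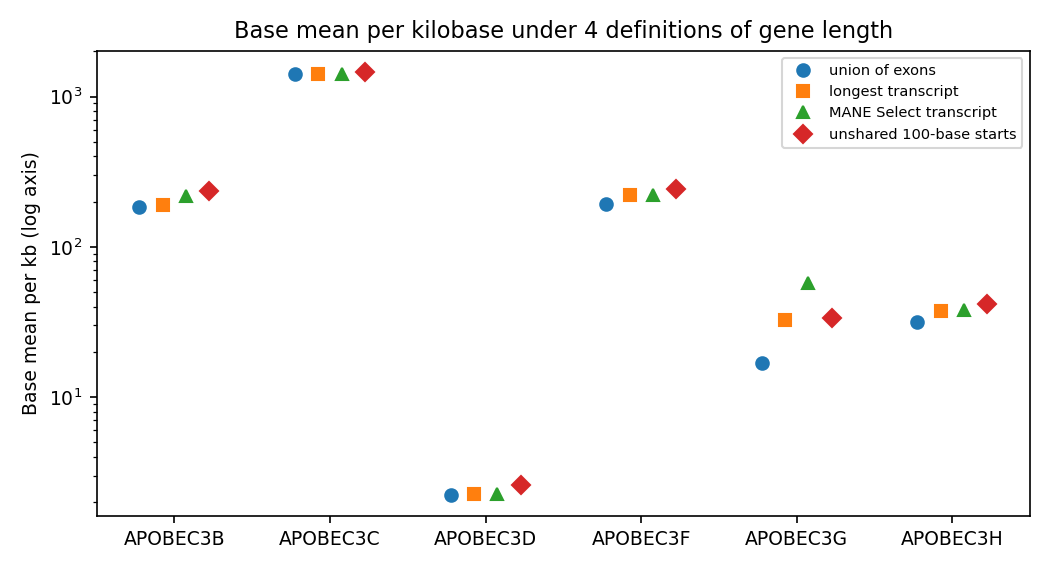
For each listed member, the authors' base mean per kb (log axis) is shown with 4 definitions of gene length, namely the merged exons (circles), the longest transcript (squares), the MANE Select transcript (triangles) and the start positions of unshared 100-base stretches in the longest transcript (diamonds). The points of APOBEC3G spread from 16.8 to 57.7 and those of the other members by a factor of at most 1.32.

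How far the members could be counted apart was described from their transcripts. The libraries were read for 101 cycles from 1 end, so stretches of 100 bases were searched, without mismatch and on both strands, in all 252835 GENCODE 44 transcripts, leaving out genes that overlap the member on the genome. In the MANE Select transcript of APOBEC3B, 20.5% of the start positions of such stretches recurred in another gene, mostly in APOBEC3A (174 of 306 shared positions), then in APOBEC3D (100). For APOBEC3A the share was 13.9%, and all of its 175 shared positions matched APOBEC3B. APOBEC3D had 9.23%, with APOBEC3F and APOBEC3B as partners, APOBEC3G 7.30%, all with APOBEC3F, and APOBEC3F 5.96%. No stretch of 100 bases was shared for APOBEC3C or APOBEC3H. With stretches of 50 bases, as for reads that were trimmed, the share rose to 34.6% in APOBEC3B and 1.39% in APOBEC3C, and was still 0 in APOBEC3H. The transcript chosen moved the shares of 3 members. In the longest annotated transcript, 15.2% of the 100-base positions were shared in APOBEC3B and 12.7% in APOBEC3A, and none of 2676 in APOBEC3G, whose longest transcript has a retained intron. In the other 4 members the share was the same with both transcripts. A read that lies wholly within such a stretch matches more than 1 gene and is left out when only uniquely mapped reads are kept. How much this changed the base means of APOBEC3B, APOBEC3D, APOBEC3F and APOBEC3G was not tested. For APOBEC3G it concerns the MANE Select transcript. Whether it took part in APOBEC3A not being listed was not tested either. The base mean per kb of unshared positions, counted in the longest transcript, was 235.1 for APOBEC3B and 242.0 for APOBEC3F, higher than per kb of merged exons, but in the same place among the members. Per kb of the whole longest transcript, APOBEC3B had 188.5 and APOBEC3F 222.6. APOBEC3C, with no shared position, also went from 1406 to 1461, since a transcript has fewer 100-base starts than bases. The rise therefore does not measure shared sequence alone.

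**Figure D4:**
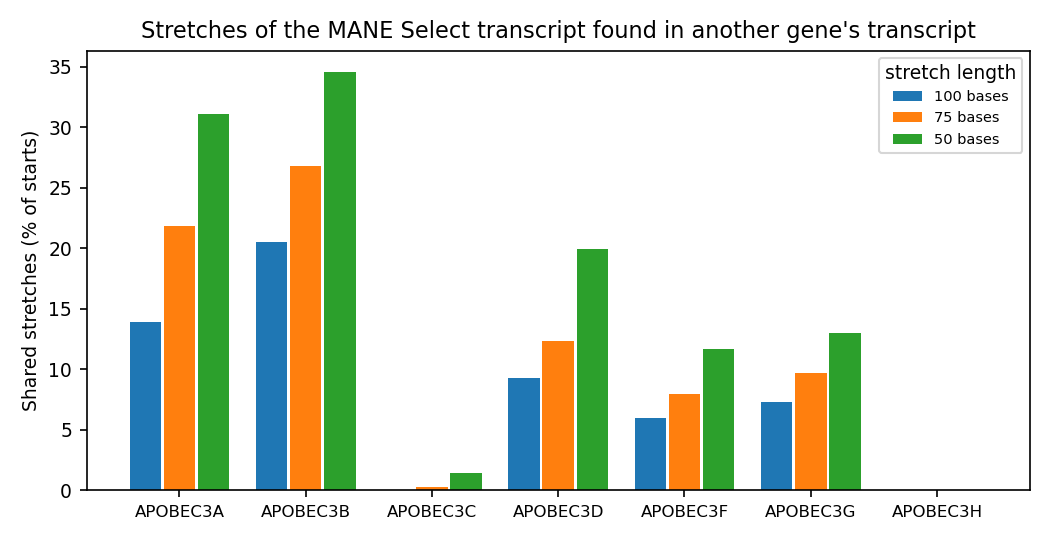
Bars give the percentage of start positions in each member's MANE Select transcript whose stretch of 100, 75 or 50 bases occurs unchanged in a transcript of another gene elsewhere in the genome. APOBEC3B has the highest bars, 20.5% at 100 bases and 34.6% at 50 bases, and APOBEC3H has none.

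Other annotated genes overlap the exons of some members. A protein-coding read-through gene, ENSG00000284554, joins the APOBEC3C and APOBEC3D loci on the same strand in GENCODE 44, and its exons cover 83.2% of the exon bases of APOBEC3D but only 17 exon bases of APOBEC3C. It was not listed in the tables. Reads that overlap 2 genes on 1 strand are commonly left uncounted, and whether this took part in the low base mean of APOBEC3D was not tested, since the authors used another annotation release. On the opposite strand, the antisense gene APOBEC3B-AS1 overlaps 244 of the 1896 exon bases of APOBEC3B, or 12.9%. It was not listed, and the authors counted by strand.

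The other genes fixed for comparison give the setting of these levels. Of the related genes outside the cluster, APOBEC1, which edits APOB mRNA, APOBEC2 and APOBEC4 were not listed. All 6 genes of uracil removal and abasic site handling were listed above the median of all listed genes, 149.8. Most protein-coding genes lie above it too. The share of protein-coding genes below 149.8 is between the 22.5% below APOBEC3G and the 37.7% below APOBEC3B. Among the 6 genes, UNG, the main uracil glycosylase in replicating cells, had a base mean of 1566. SMUG1, another uracil glycosylase, had 613, which is below the median of the protein-coding genes, 650.6. TDG and MBD4, which remove thymine or uracil opposite guanine, had 782 and 1126. APEX1, which cuts at abasic sites, had 5914, and REV1, a translesion polymerase that inserts cytosine opposite them, 967. Per kb of merged exon, SMUG1 had 101.8, REV1 124.5 and TDG 160.2, each less than APOBEC3B at 183.4 and APOBEC3F at 191.9. UNG had 297.2 and MBD4 335.9, more than APOBEC3F and less than the 1406 of APOBEC3C. APEX1 had 3136, more than any listed member. CBX6 and CBX7, on either side of the cluster, had base means of 9919 and 829. The nearest protein-coding genes outside the cluster thus both lay above the median of all listed genes. By comparison, APOBEC3C at 3719 and APOBEC3F at 1001 lay between CBX7 and CBX6. APOBEC3B at 348, APOBEC3G at 90.2, APOBEC3H at 39.3 and APOBEC3D at 5.67 lay below both, and APOBEC3A was not listed. Per kb of merged exon, CBX6 had 1241 and CBX7 111.1, both less than APOBEC3C. APOBEC3F and APOBEC3B lay between CBX7 and CBX6 on that scale, and APOBEC3H, APOBEC3G and APOBEC3D below both. The p53 targets MDM2 and CDKN1A had base means of 45128 and 64448, among the highest of all listed genes. Of lymphoid markers, genes that mark cells in which several APOBEC3 genes are known to be high, CD3E and CD4 were not listed and PTPRC stood at 3.69. Of colon epithelium markers, 5 of 6 were listed, and 3 lay above the median of all listed genes, with CDH1 at 13336, EPCAM at 2480 and CDX2 at 248.0. KRT20 at 35.1 and VIL1 at 5.68 lay below it, and CDX1 was not listed. Of retinal pigment epithelium markers, BEST1 at 67.9 and MITF at 483.9 were listed, while the visual cycle genes RPE65 and RLBP1 and the pigment gene TYR were not. Because the base mean covers both cell lines, these markers check neither line alone.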

How the data were processed

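Total RNA of the 12 libraries was sequenced on an Illumina NovaSeq instrument with single-end reads after strand-specific library preparation. Per the labels, ribosomal RNA was depleted from 200 ng of input, whereas the methods of the paper name poly(A) selection. Per the submitters' processing notes, Trimmomatic 0.39, cutadapt 3.3, SAMtools 1.12, featureCounts 2.0.1 and DESeq2 1.32.0 were used on hg38, and the paper adds segemehl, an Ensembl annotation and a filter for uniquely mapped reads. The deposited signal is the base mean, the authors' mean of normalized counts, pooled over libraries. The other deposited columns hold the authors' comparison of both treatments in 1 cell line per table (log2 fold change, its standard error, test statistic, p-value and adjusted p-value) and were not used. The planned test of the treatment was therefore not run, and the design stayed as written.

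Members and gene lists were chosen with earlier results of these data known. The genes named are the 7 members, 3 related genes, the antisense gene, the nearest protein-coding neighbours, uracil repair genes, 2 p53 targets and cell type markers. Some genes of these lists are not reported here. Exons, coding parts and transcripts came from GENCODE 44 on the same genome build, while the authors used another annotation release. Base means were divided by gene length, ranked among listed genes as the percentage of genes with a lower base mean, and set beside the sequence shared between transcripts. The search for shared sequence and the percentages were tested on simulated data with known answers. Alternatives were protein-coding genes only, base means of at least 10, other lengths and stretches of 75 and 50 bases. Python 3.11.15 with pandas 2.3.3 and matplotlib 3.10.9 was used. Reads per library are unknown, so no interval was computed.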

Additional observations from a re-analysis of the deposited data

How the results depend on the processing

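The number of members listed was 6 by name and by identifier. The number above the median base mean was 3 among all listed genes, 2 among protein-coding genes and 2 among genes whose base mean reached 10, and APOBEC3B was the member that changed sides. The base mean per kb varied over the 4 lengths by a factor of 3.44 for APOBEC3G and of at most 1.32 for the other members, and the order of APOBEC3G and APOBEC3H turned with the MANE Select transcript, which was added after seeing the data. Merged exons and the longest transcript of APOBEC3G include retained introns. The share of its 100-base stretches found in another gene was 0 in the longest transcript and 7.30% in the MANE Select transcript, also added after seeing the data. For APOBEC3B these shares were 15.2% and 20.5%. No percentage over genes whose base mean reached 10 was given for APOBEC3D, which lies below that limit. No paired analysis was possible because the tables used here hold no values of single libraries. For the same reason no replicate was left out, no filter on counts and no second count model was run, and the treatment was not tested. Without reads per library, depth limits every value to a description.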
